A study of Mus musculus with 4 samples.

Results

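The genes described here are 8 members of the machinery that exports and makes cholesterol: Abca1, Abcg1, Apoe, Nr1h3, Mylip, Srebf2, Hmgcs1 and Insig1. They were taken by symbol from the 31054 features of a single-cell RNA sequencing series of mouse kidney, and each symbol matched 1 gene. The set was drawn up with the difference between treated and control libraries in endothelium, macrophages and tubule in view, Abca1 first among them. Values of the members under that contrast in those 3 classes are therefore a description: no p-value is given for them, and counts past a threshold are printed only beside the share of all genes. Kidneys came from male C57BL/6 mice aged 19 months that had received BPTES, an inhibitor of the glutaminase GLS1, or its vehicle DMSO for 1 month. Each group held 2 libraries, and both shared the strain, sex, age and handling. Tissue was digested with liberase and sorted on CD45, and 20000 CD45-negative with 9000 CD45-positive cells of 1 tissue went into each library, so the proportions of leukocytes and other cells were set by the sort. The labels do not say that the libraries came from separate animals, so every error below is the spread between libraries, and 2 against 2 libraries cannot go below p = 0.333 in an exact permutation test.

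ABCA1 and ABCG1 are membrane transporters that move cellular cholesterol onto lipoproteins, and apolipoprotein E is a secreted acceptor for it. The liver X receptors, of which Nr1h3 encodes LXRalpha, sense oxysterols and switch on Abca1, Abcg1, Apoe and Mylip, the last of which encodes IDOL, a ubiquitin ligase that limits the uptake of lipoprotein cholesterol. When sterols run low, SREBP2, the product of Srebf2, is released from INSIG proteins and activates uptake and synthesis genes, among them Hmgcs1, which encodes the cytosolic HMG-CoA synthase, and Insig1 itself.

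The genes lie apart in the genome (mm10, GENCODE annotation): Abca1 at chr4:53030787-53159895, Abcg1 at chr17:31057675-31117988, Apoe at chr7:19696109-19699188, Nr1h3 at chr2:91184061-91202834, Mylip at chr13:45389742-45412022, Srebf2 at chr15:82147181-82205379, Hmgcs1 at chr13:119690379-119708260 and Insig1 at chr5:28071363-28078662. RefSeq promoters (GRCm38.p6) were matched for 7 of the 8. The 250 bases before the start of Abca1 and of Hmgcs1 are shown because each holds a known motif of 1 of the control systems named above, and because the values of these 2 genes are set side by side below. Capitals mark the motif in each.
Abca1, chr4:53159896-53160145, minus strand: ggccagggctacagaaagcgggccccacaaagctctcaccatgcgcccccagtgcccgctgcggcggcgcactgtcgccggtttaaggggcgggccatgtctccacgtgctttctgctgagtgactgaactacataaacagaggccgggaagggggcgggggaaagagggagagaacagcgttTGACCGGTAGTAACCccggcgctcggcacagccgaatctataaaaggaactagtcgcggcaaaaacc
Hmgcs1, chr13:119690101-119690350, plus strand: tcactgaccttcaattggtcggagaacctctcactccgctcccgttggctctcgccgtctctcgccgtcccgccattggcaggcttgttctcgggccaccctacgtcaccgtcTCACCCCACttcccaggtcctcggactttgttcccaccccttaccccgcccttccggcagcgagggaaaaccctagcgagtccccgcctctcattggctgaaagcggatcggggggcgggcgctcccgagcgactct
The capitals in Abca1 lie 67 to 53 bases before the start and match, on the opposite strand, the LXR element, searched as GGTNA and GGTCA with any 5 bases between them; read on that strand the letters are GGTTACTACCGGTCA. Of 32851 promoter windows of this length, 0.177% held that element on either strand. The capitals in Hmgcs1 lie 137 to 129 bases before the start and match the sterol regulatory element core TCACNCCAC, which 1.05% of windows held. A shorter core, TCACCCCA, searched after the sequences had been seen and contained in the Hmgcs1 match, also occurred in Srebf2 at 162 to 155 bases and in 1 of 3 Apoe promoters at 213 to 206 bases before the start, and in 1.34% of all windows. These matches are descriptions of letters and were not tested for binding.

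The 4 libraries held 249881074 to 297947661 UMIs (unique molecular identifiers, each counting 1 captured RNA), and 10849 to 12076 cells per library passed the filters. Cells were clustered and named from marker genes alone, so every class name below stands for cells like that type. Endothelium, with 710 to 1466 cells per library, carried its own markers at 13518 to 14329 CPM, the UMIs of a gene per 1000000 UMIs of its class, while macrophage markers summed to 26.0 to 52.1 CPM there against 11735 to 16437 CPM in macrophages. Between 90 and 114 cell barcodes were shared by any 2 libraries, at most 0.618% of a library. DMSO 2 stood apart for several of the genes: it held the highest Abca1 of the 4 libraries in 10 of 14 classes, the highest Apoe in 9 and the highest Mylip in 8. Values without it stand beside several of the differences below.

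The members differed widely in the cell classes where they were read, over all 4 libraries. Abca1 averaged 129 ± 52.1 CPM in endothelium, 126 ± 28.5 in B cells, 122 ± 97.4 in neutrophils, 122 ± 59.1 in macrophages and 121 ± 50.9 in monocytes (SD, n = 4 libraries), and these 5 classes did not differ beyond their spread. That spread takes treated and control libraries together. B cells gave 156 and 143 CPM under BPTES, where the others of the 5 gave 65.0 to 88.9. Under DMSO B cells gave 96.0 and 108 CPM and the others 90.0 to 267. Proximal tubule cells had 19.0 ± 7.08 CPM and T cells, the lowest, 8.08 ± 1.27 CPM. Abcg1 was read mostly in leukocytes and endothelium, with 138 ± 49.7 CPM in monocytes, 58.4 ± 10.8 in endothelium and 0.228 ± 0.0341 in proximal tubule, where each library yielded only 20 to 33 UMIs. Apoe was highest in macrophages at 6102 ± 3856 CPM and next in monocytes at 4296 ± 1617 CPM.

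The sterol-making side had another distribution. Hmgcs1 reached 209 ± 20.02 CPM in proximal tubule, above the 132 ± 10.4 CPM of the thick ascending limb in 4 of 4 libraries, and stood at 35.3 ± 4.84 in endothelium and 23.4 ± 1.28 in macrophages. Srebf2 was highest in B cells (165 ± 5.50 CPM) and dendritic cells (162 ± 12.2), which did not differ beyond their spread, and was 45.2 ± 5.17 in proximal tubule. Nr1h3 had its highest means in monocytes (39.3 ± 27.6 CPM) and proximal tubule (25.7 ± 2.92), which did not differ beyond their spread. In monocytes DMSO 1 stood at 79.3 CPM and the other libraries at 19.2 to 35.5. Macrophages had only 5.56 ± 1.77 CPM, but the monocyte class is not cleanly parted from them, as given below. Mylip was read at 140 ± 20.8 CPM in B cells, 134 ± 15.7 in macrophages and 132 ± 22.6 in endothelium, and Insig1 at 5.49 ± 1.21 CPM in principal cells up to 38.3 ± 6.26 in endothelium.

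**Figure D1:**
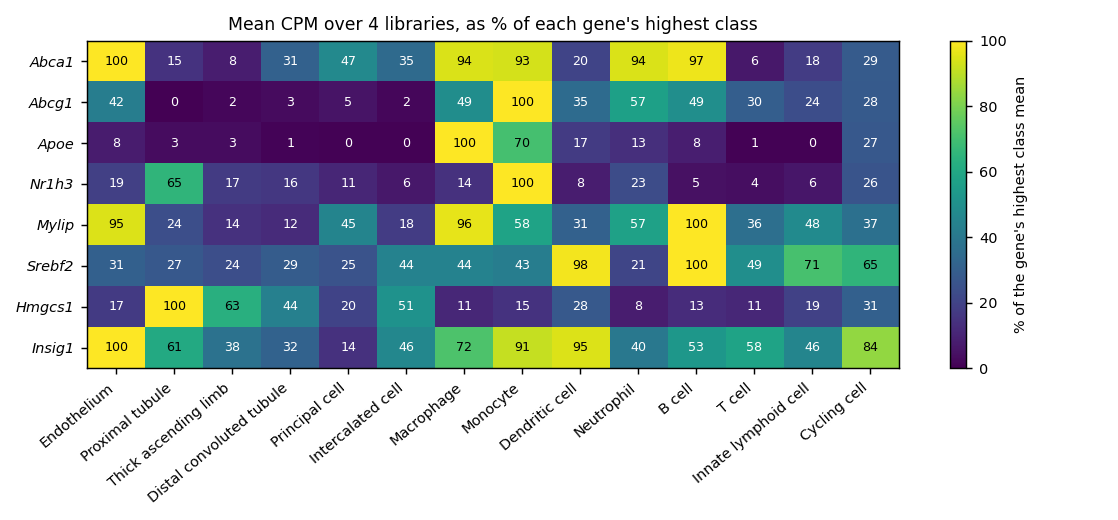
Mean CPM over 4 libraries for each gene (rows) in 14 cell classes (columns), as a percentage of that gene's highest class (colour and printed value). Abcg1 and Apoe are near 0 in tubular classes, while Hmgcs1 has its highest value in proximal tubule.

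Differences between cell classes were tested within libraries with edgeR's quasi-likelihood test, with library as a block and Benjamini-Hochberg adjustment over 16500 genes. Endothelium and proximal tubule differed in 6 of 8 members against 82.1% of all genes tested, macrophages and proximal tubule in 7 of 8 against 84.3%, and macrophages and endothelium in 5 of 8 against 71.6%, so the counts are near or below the background and are no result about the members. Relative to proximal tubule, endothelium was higher by log2 7.17 (SE 0.14) for Abcg1, 1.91 (SE 0.18) for Abca1 and 1.17 (SE 0.14) for Mylip, and fell by log2 3.38 (SE 0.10) for Hmgcs1 and 2.62 (SE 0.16) for Nr1h3, each in 4 of 4 libraries and with adjusted p of 8.2e-06 or less (edgeR). Macrophages exceeded endothelium by log2 3.89 (SE 0.32) for Apoe and 0.84 (SE 0.06) for Srebf2, in 4 of 4 libraries each, while the difference in Abca1 did not pass the threshold (log2 0.20, SE 0.17, edgeR adjusted p = 0.324) and was positive in 2 of 4 libraries.

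The scaling changed some of these comparisons. With plain library sizes in place of TMM factors, a check chosen after seeing the data, the median gene moved from log2 -0.10 to 0.71 for endothelium against proximal tubule, from -0.07 to 0.43 for macrophages against proximal tubule and from -0.01 to -0.30 for macrophages against endothelium. The share of calls that were lower went from 52.9% to 31.3%, from 52.3% to 39.6% and from 49.8% to 63.7%. Srebf2 in endothelium against proximal tubule turned from log2 -0.66 to 0.15 and Insig1 from -0.09 to 0.72. Directions for Abca1, Abcg1, Mylip, Hmgcs1 and Nr1h3 between endothelium and proximal tubule were the same under both scalings. Nr1h3 in macrophages against endothelium was log2 -0.09 (SE 0.18) but 1.23 at the finer clustering, where macrophages numbered 823 to 1233 cells per library in place of 701 to 915 and monocytes 153 to 385 in place of 241 to 589.

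Abca1 was lower under BPTES in endothelium, macrophages and tubule. Endothelium gave 85.6 and 86.9 CPM in the BPTES libraries against 152 and 192 in the DMSO libraries, a ratio of means of 0.502 and a log2 fold change of -0.99 (SE 0.12). Macrophages gave 88.3 and 73.6 against 119 and 206 CPM, a log2 fold change of -1.02 (SE 0.31). The tubule sum gave 15.2 and 15.4 against 28.8 and 24.4 CPM, a log2 fold change of -0.70 (SE 0.10). In none of the 3 did the groups overlap. Of all genes tested, 21.7%, 27.8% and 38.2% were likewise lower without overlap in these classes, and 20.5%, 28.1% and 15.9% higher. Members lower without overlap numbered 4 in each of the 3 classes, and 2, 1 and 2 were higher in endothelium, macrophages and tubule.

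Other measures moved in the same classes, and their part in the Abca1 values was not tested. In endothelium, macrophage markers summed to 29.0 and 26.0 against 43.7 and 52.1 CPM, lower without overlap (5 of 9 lower, 0 higher, none at 0). Monocyte markers summed to 205 and 174 against 269 and 310 CPM, also lower without overlap, but only 2 of the 8 were lower one by one and 3 were higher. In macrophages, proximal tubule markers summed to 577 and 422 against 361 and 270 CPM (9 of 12 higher without overlap, none at 0) and dendritic cell markers to 101 and 103 against 90.6 and 45.9 CPM (4 of 7 higher, none at 0). Macrophage markers there were lower without overlap, at 11735 and 11780 against 14594 and 16437 CPM (8 of 9 lower, none at 0). The 13 mitochondrial transcripts summed to 32628 and 31563 against 35541 and 35058 CPM in endothelium, lower without overlap. They were higher without overlap in macrophages, at 31692 and 31473 against 29337 and 27776 CPM, and in the tubule, at 151730 and 175930 against 132540 and 148700 CPM.

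Among all 8 members, edgeR with Benjamini-Hochberg adjustment over all genes of the class called 1 in endothelium (Abca1, lower; background 0.635% of 13853 genes) and 0 in macrophages (background 2% of 13780) and in the tubule (background 0.00585% of 17084). At an unadjusted p under 0.05 the counts were 4 in endothelium (background 11.3%), 4 in macrophages (background 23%) and 3 in the tubule (background 14.7%). DESeq2 called 0 in macrophages, where it called 525 of all genes, and 1 in the tubule, where it called 630. Nothing is read from these counts, since the members were chosen on this contrast. Without BPTES 1 (log2 -0.96) or BPTES 2 (-1.02) endothelial Abca1 was not called. Without DMSO 2, the macrophage value shrank from -1.02 to -0.56 and the endothelial value from -0.99 to -0.80.

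**Figure D2:**
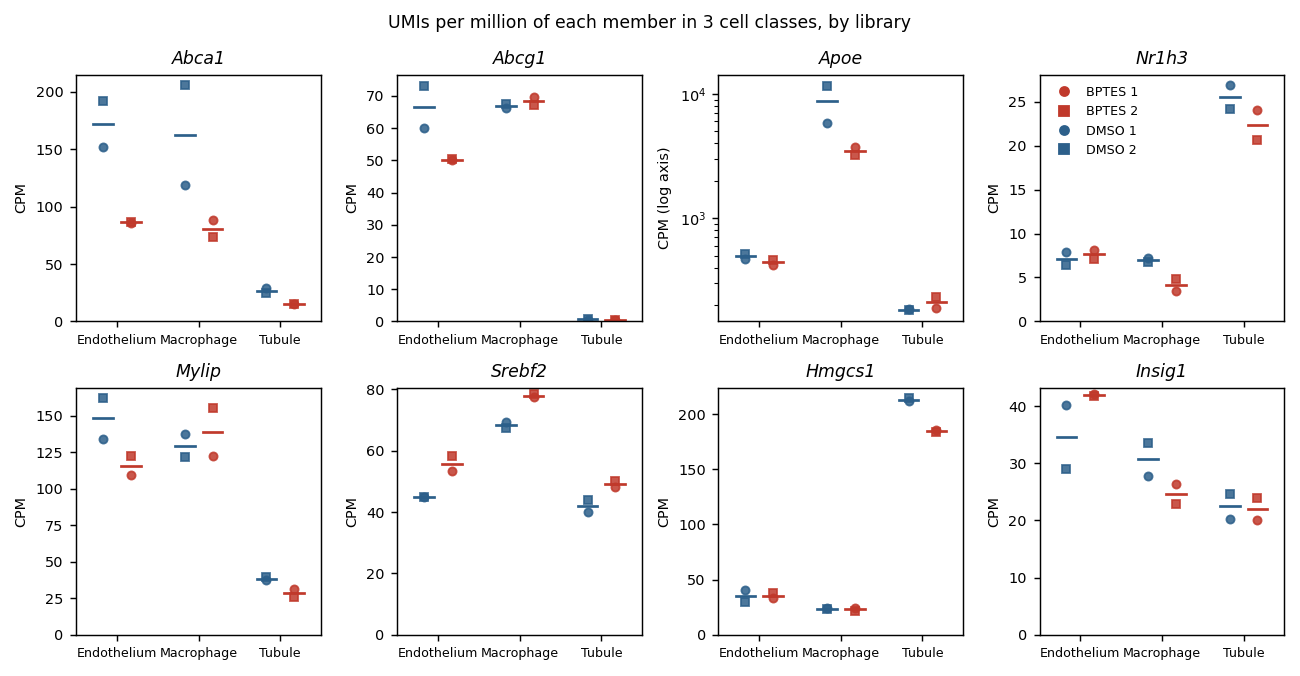
CPM of each gene (1 panel per gene) in endothelium, macrophages and tubule, with 1 point per library, red for BPTES and blue for DMSO, circles for replicate 1 and squares for replicate 2, and bars at the group means. The Apoe axis is logarithmic and the others start at 0. Abca1 lies lower in both BPTES libraries in all 3 classes, and Srebf2 higher.

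Abca1 was also followed by cluster. All clusters come from the same 4 libraries, so here and below they are not repeated observations. No share of all genes stands beside the counts of clusters. Of 6 endothelial clusters with at least 20 cells per library, 5 had both BPTES libraries below both DMSO libraries and 1 overlapped. One of the 5, led by Fabp4, Ly6c1 and Plvap, held only 1 and 2 Abca1 UMIs in the BPTES and 4 and 16 in the DMSO libraries. In the largest, led by Plvap, Flt1 and Emcn, Abca1 stood at 61.7 and 74.8 against 147 and 211 CPM. The cluster led by Tm4sf1 and Meis2 gave 117 and 98.2 against 169 and 160 CPM. The first cluster held 51.6% and 51.7% of treated and 53.0% and 47.1% of control endothelial cells, and the second 22.6% and 20.1% against 16.4% and 15.9%. The cluster led by Plvap, Adgrl4 and Ptprb held 6.57% and 6.62% against 8.69% and 11.5%. The part of these unequal shares was not tested.

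Of 3 macrophage clusters, the 2 larger had Abca1 lower without overlap, at 116 and 100 against 133 and 248 CPM in the first, and the third, with 29 to 86 cells per library, overlapped. In proximal tubule 4 of 10 clusters separated, all lower, and 6 overlapped. The cluster led by Snhg11, Magi2 and Slc5a12 gave 21.6 and 14.4 against 55.5 and 33.2 CPM, whereas the 2 most populous clusters gave 10.1 and 15.4 against 20.3 and 10.6 CPM and 6.54 and 9.55 against 10.7 and 8.39 CPM. Macrophage markers in the tubule sum were also lower, at 19.1 and 16.4 against 30.1 and 39.7 CPM, with 8 of 9 lower without overlap and none at 0, and their part in the tubule value was not tested.

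**Figure D3:**
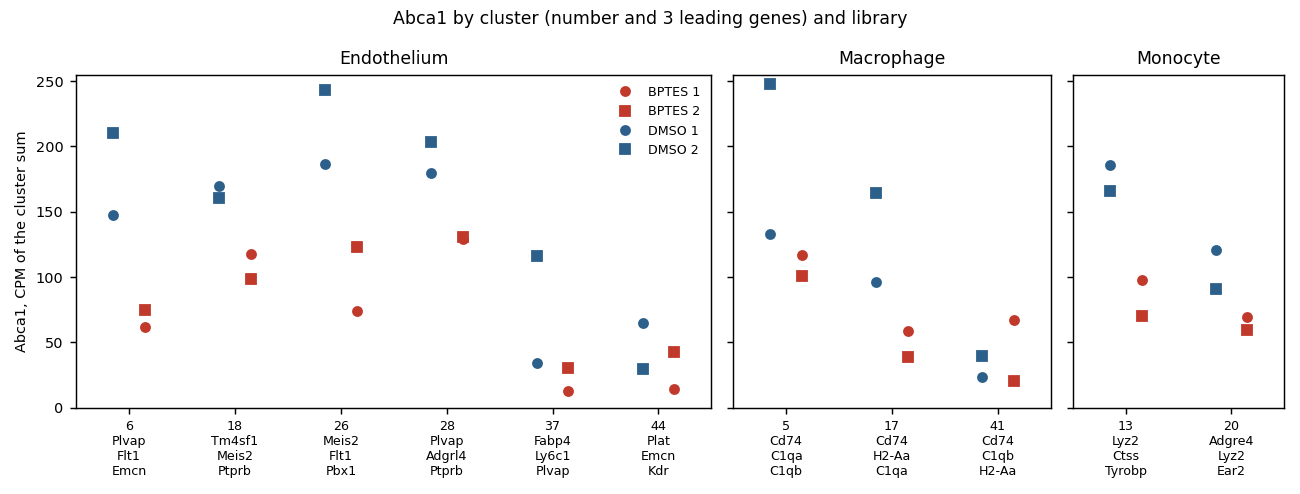
Abca1 in CPM of the cluster sum (y axis) for endothelial, macrophage and monocyte clusters with at least 20 cells in every library (x axis, cluster number and 3 leading genes), 1 point per library, red for BPTES and blue for DMSO. Both BPTES libraries lie below both DMSO libraries in 5 of 6 endothelial, 2 of 3 macrophage and 2 of 2 monocyte clusters.

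Immediate early genes, which rise within minutes of a stimulus and during tissue dissociation, moved with endothelial Abca1. Their list also holds the heat shock genes Hspa1a and Hspa1b. Of 22 tested members of that list in endothelium, 6 passed edgeR's threshold, where 0.635% of all genes did, all lower under BPTES: Egr1 (log2 -1.18), Fos (-0.98), Atf3 (-0.90), Zfp36 (-0.84), Ier2 (-0.68) and Junb (-0.62). Jun did not pass, at 1136 and 1107 against 1344 and 1660 CPM. The list summed to 5261 and 5740 CPM in the BPTES against 6564 and 7674 CPM in the DMSO libraries. The tubule had 0 of 23 called, with 12 lower and 0 higher at an unadjusted p under 0.05 (14.7% of all genes), and the list summed to 421 and 447 against 563 and 683 CPM, lower without overlap. Proximal tubule alone had 5 of 21 called, all lower, where 0.779% of all genes were called. Macrophages had 0 of 23 called, with 3 higher and 10 lower at an unadjusted p under 0.05 (23% of all genes), and there the list summed to 7073 and 7295 against 6851 and 6919 CPM, higher under BPTES without overlap. The part of this shift in the Abca1 result was not tested. The list was chosen with earlier results of these data known, so nothing particular to it is read from its counts here and below.

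Classes outside the rule were also fitted, although their cells are not all separate from the classes the members were chosen on. Over 7 of them (B cells, cycling cells, dendritic cells, innate lymphoid cells, monocytes, neutrophils and T cells), 54 pairs of member and class had enough UMIs, and edgeR called 1, against 1.82% of all gene and class pairs. Without overlap, 17 pairs were lower and 6 higher under BPTES, where 23% and 24% of all pairs were. The share called is near the background, and nothing is read from the count. The single call was Abca1 in monocytes, a class not cleanly parted from macrophages. Macrophage markers summed higher there than monocyte markers in 4 of 4 libraries, and at the finer clustering DMSO 1 held 344 monocytes and 1233 macrophages in place of 589 and 906.

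Monocyte Abca1 stood at 88.9 and 67.1 CPM in the BPTES libraries and at 175 and 152 CPM in the DMSO libraries. The groups did not overlap, and the log2 fold change was -1.04 (SE 0.13, edgeR adjusted p = 0.0088, lower in 2 of 2 treated libraries), in a class where 8.75% of genes were called. Both monocyte clusters had it lower, at 98.0 and 70.5 against 185 and 166 CPM in the Lyz2 and Ctss cluster and at 69.4 and 59.4 against 121 and 90.7 CPM in the Adgre4 and Ear2 cluster. The first cluster made up 49.8% and 55.0% of treated but 69.1% and 63.9% of control monocytes.

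After a 25% mitochondrial limit the cells were clustered and named again. DMSO 1 then held 354 monocytes in place of 589, 1421 macrophages in place of 906 and 328 unnamed cells in place of 739. Before that limit the median mitochondrial share of monocytes was 1.58% to 1.83% per library. The limit gave 162 to 403 monocytes per library, and finer clustering 153 to 385. With either, the monocyte call was lost (log2 -0.45, edgeR adjusted p = 0.271, and -0.43, adjusted p = 0.509). It was also lost without BPTES 1 (-1.23) or BPTES 2 (-0.88), where 1 treated library was left. Macrophage markers moved with monocyte Abca1: their sum in monocytes was 3774 and 3195 against 7745 and 8069 CPM, 8 of 9 lower without overlap and none at 0. Monocyte markers summed to 2605 and 3189 against 1891 and 2154 CPM. The part of that shift was not tested. Of the immediate early list, 4 of 23 were called higher in monocytes (Klf2, Nr4a1 and the heat shock genes Hspa1a and Hspa1b) and 1 lower (Egr2). Its sum overlapped, at 9578 and 8877 against 7559 and 9951 CPM.

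In the other 6 classes no difference in Abca1 passed the threshold. Neutrophils gave 65.4 and 65.0 against 90.0 and 267 CPM (log2 -1.47, SE 0.41, edgeR adjusted p = 0.463), and dendritic cells 16.4 and 16.9 against 22.2 and 49.6 CPM (-1.12, SE 0.47, adjusted p = 0.283). In both, DMSO 2 lay far above DMSO 1. The neutrophil value was -0.60 without DMSO 2 and -2.02 without DMSO 1, each with 1 control library left. With all libraries it was called by DESeq2 (adjusted p = 0.043) and by edgeR with no filter (adjusted p = 1.6e-06). The dendritic value was -0.44 without DMSO 2 and -1.58 without DMSO 1. B cells went the other way, with 156 and 143 against 96.0 and 108 CPM (log2 0.57, SE 0.13, edgeR adjusted p = 0.183). With no filter edgeR called that value (0.58, adjusted p = 0.0044). Groups overlapped in cycling cells, innate lymphoid cells and T cells, where the log2 values were -0.97, -0.09 and -0.12. The first ranged from -2.25 to -0.37 when 1 library was left out, and edgeR with no filter called it (-0.98, adjusted p = 0.0057).

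**Figure D4:**
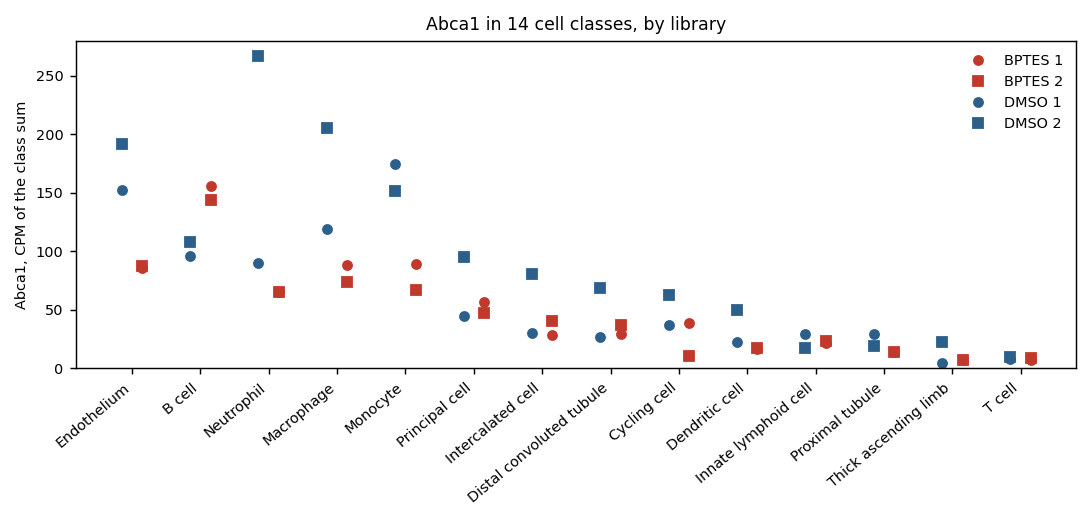
Abca1 in CPM of the class sum (y axis, from 0) in 14 cell classes ordered by mean level, 1 point per library, red for BPTES and blue for DMSO. The classes from endothelium to monocytes lie between 65.0 and 267 CPM, B cells are the class with both BPTES libraries above both DMSO libraries, and DMSO 2 is highest in 10 of 14.

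Abcg1, the partner transporter, had groups apart in endothelium and overlapping in macrophages and tubule. It gave 50.1 and 50.4 CPM under BPTES against 60.2 and 73.0 under DMSO in endothelium (log2 -0.41, SE 0.11), with 3 of 6 endothelial clusters lower and 3 overlapping. Without DMSO 2 the endothelial value was -0.24. Macrophages were even, at 69.5 and 67.3 against 66.2 and 67.6 CPM (log2 0.02, SE 0.07), and the tubule held 0.401 to 0.881 CPM in all. In monocytes 3 libraries lay between 110 and 117 CPM and DMSO 1 alone reached 212. The log2 value of -0.48 (edgeR adjusted p = 0.431) became 0.03 without DMSO 1 and -0.86 without DMSO 2, each with 1 control library left. Dendritic cells gave 47.5 and 41.8 against 52.4 and 50.6 CPM (log2 -0.22, SE 0.08, adjusted p = 0.176).

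Apoe was lower under BPTES in macrophages and monocytes, with no overlap of the groups. Macrophages gave 3729 and 3225 CPM against 5819 and 11635 CPM, a ratio of means of 0.398 and a log2 fold change of -1.34 (SE 0.40), with all 3 macrophage clusters lower and none overlapping. DMSO 2 was the highest library, and without it the value was -0.75. Macrophage markers were lower in the same class, as given above, and their part was not tested. Monocytes gave 3642 and 2319 against 5766 and 5456 CPM (log2 -0.89, SE 0.20, edgeR adjusted p = 0.0616), and the call depended on the setting. It was made by DESeq2 (adjusted p = 2.6e-05) and by edgeR with no filter (-0.90, adjusted p = 0.0041). It was also made by edgeR with the replicate number as a block (-0.92, adjusted p = 0.039). Without BPTES 1, with 1 treated library left, the value was -1.22. The difference was -0.02 with the 25% mitochondrial limit and -0.05 at the finer clustering. By cluster, the Lyz2 and Ctss cluster was lower and the Adgre4 and Ear2 cluster overlapped, at 3144 and 1583 against 2133 and 2848 CPM. The unequal shares of these clusters are given above, and their part in the monocyte value was not tested.

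Cycling cells gave 1190 and 242 against 1573 and 3677 CPM of Apoe (log2 -1.89, SE 0.77, edgeR adjusted p = 0.765), and leaving out 1 library moved the value between -3.46 without BPTES 1 and -1.13 without DMSO 2. Dendritic cells gave 417 and 672 against 794 and 2333 CPM (log2 -1.53, SE 0.76, edgeR adjusted p = 0.38), and that value moved between -2.10 and -0.56. Neither passed the threshold, and the groups did not overlap in either. With no filter edgeR called the cycling cell value (-1.90, adjusted p = 2.1e-26). Endothelium gave 423 and 457 against 471 and 515 CPM (log2 -0.16, SE 0.09, and -0.08 without DMSO 2) and the tubule 188 and 231 against 186 and 181 CPM (log2 0.28, SE 0.14). Within proximal tubule its level was 511 to 816 CPM in the cluster led by Spp1, C3 and Fgg, 515 to 595 CPM in that led by Gpx3, Spp2 and Apob, and 18.2 to 46.8 CPM in that led by Kap, Slc7a13 and Cyp2a4. Of 10 such clusters, 2 were higher under BPTES, 4 lower and 4 overlapping. The cluster led by Gpx3, Spp2 and Apob held 1369 and 1576 treated but 1014 and 1026 control cells, and the part of that share in the tubule value was not tested. In droplet data free RNA can give UMIs in cells that do not express a gene, so Apoe was set beside 9 macrophage markers. Apoe in proximal tubule was 1.65% to 7.57% of its macrophage level, where the markers' median was 0.134% to 0.191% and none was as high in any library. T cells differed: Apoe was 0.543% to 1.00% of the macrophage level and the markers' median 0.329% to 0.720%. The lower T cell Apoe (23.4 and 17.5 against 58.3 and 90.9 CPM, log2 -1.87, edgeR adjusted p = 0.14) was called by DESeq2 (adjusted p = 6.7e-14). T cell Apoe stands close to that background, and no change is read from it. In dendritic cells Apoe was 11.2%, 20.8%, 13.6% and 20.1% of its macrophage level in BPTES 1, BPTES 2, DMSO 1 and DMSO 2, beside marker medians of 15.9%, 20.4%, 15.6% and 23.6%. In cycling cells it was 31.9%, 7.50%, 27.0% and 31.6%, below marker medians of 44.1%, 12.5%, 31.3% and 46.4%. The markers themselves stood far higher in dendritic and cycling cells than the 0.329% to 0.720% of T cells. Whether their UMIs and those of Apoe came from cells of these classes or from free RNA was not tested. No change in Apoe of either class is read from these values.

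Nr1h3, the receptor gene, was low in macrophages, at 3.42 and 4.84 against 7.25 and 6.75 CPM (51 to 144 UMIs per library, log2 -0.78, SE 0.23), with no overlap. Leaving out 1 library moved that value between -1.07 and -0.50. Monocytes gave 19.2 and 23.1 against 79.3 and 35.5 CPM (log2 -1.43, SE 0.47, edgeR adjusted p = 0.182), lower in both clusters. Without DMSO 1 the monocyte value was -0.74 and without DMSO 2 it was -1.86, each with 1 control library left. Macrophage markers were also lower in monocytes, as given above, and their part in it was not tested. Endothelium overlapped at 6.38 to 8.11 CPM. The tubule gave 24.0 and 20.6 against 26.9 and 24.2 CPM (log2 -0.11, SE 0.09, and -0.17 to -0.04 when 1 library was left out).

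Mylip was lower in endothelium, at 109 and 123 against 134 and 162 CPM (log2 -0.35, SE 0.12), although by cluster 1 of 6 was lower, 1 higher and 4 overlapped. Without DMSO 2 that value was -0.19. It was also lower in the tubule, at 31.3 and 25.7 against 37.2 and 39.7 CPM (-0.35, SE 0.10). In 7 of 10 proximal tubule clusters it was lower without overlap, and in 3 it overlapped. Macrophages overlapped, at 123 and 155 against 137 and 122 CPM (log2 0.09, SE 0.15). T cells gave 50.5 and 60.3 against 45.3 and 47.2 CPM, a log2 value of 0.27 (SE 0.11, edgeR adjusted p = 0.27).

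Srebf2 was the member that was higher in all 3 classes. Endothelium gave 53.3 and 58.1 CPM under BPTES against 44.9 and 45.0 under DMSO (log2 0.31, SE 0.09). Macrophages gave 77.4 and 78.6 against 69.4 and 67.4 (0.18, SE 0.08), and the tubule 48.2 and 50.1 against 39.9 and 43.8 (0.32, SE 0.10). The groups did not overlap in any of the 3, and the log2 values were smaller than those of Abca1.

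By cluster, Srebf2 was higher without overlap in 7 of 10 proximal tubule clusters and lower in 1, and higher in 3 of 6 endothelial clusters and lower in 1. Of 3 macrophage clusters 1 was higher and 2 overlapped. The macrophage cluster led by Cd74, H2-Aa and C1qa gave 77.0 and 77.8 against 79.3 and 76.4 CPM. The lower endothelial one, led by Fabp4, Ly6c1 and Plvap, held 0 and 0 Srebf2 UMIs under BPTES and 6 and 2 under DMSO. In proximal tubule its highest level, 65.2 to 96.6 CPM, was in the cluster led by Snhg11, Magi2 and Slc5a12, which held 750 and 637 treated and 561 and 443 control cells. The part of that unequal share in the class value was not tested. Outside the rule, T cells gave 87.7 and 86.8 against 76.9 and 73.2 CPM (log2 0.22, SE 0.07, edgeR adjusted p = 0.182), monocytes a log2 value of 0.19 (adjusted p = 0.342) and B cells of -0.05 (adjusted p = 0.916).

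Hmgcs1, a target of SREBP2, was not higher under BPTES in the tubule, where Srebf2 was. There it was lower without overlap, as were 38.2% of all genes tested in that class. It gave 185 and 184 CPM under BPTES against 212 and 214 under DMSO (log2 -0.11, SE 0.09, and -0.16 to -0.04 when 1 library was left out). In endothelium it gave 33.4 and 37.7 against 40.6 and 29.6 CPM, and in macrophages 24.4 and 21.7 against 24.3 and 23.2 CPM, both overlapping. Within proximal tubule 8 of 10 clusters overlapped and 2 were lower, both among those led by Kap. One of these 2 had 243 to 334 CPM and held 576 and 525 treated but 893 and 875 control cells, and the part of that share in the class value was not tested. Innate lymphoid cells gave 30.0 and 31.9 against 48.6 and 50.0 CPM (log2 -0.70, SE 0.23, edgeR adjusted p = 0.307).

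Insig1, which encodes the retention protein of SREBP2 and is itself an SREBP target, had no common direction. It gave 42.1 and 41.8 against 40.2 and 29.0 CPM in endothelium (log2 0.30, SE 0.14), 26.4 and 22.9 against 27.7 and 33.6 in macrophages (-0.33, SE 0.12) and 20.03 and 23.9 against 20.3 and 24.6 in the tubule (0.06, SE 0.16). The endothelial groups did not overlap, but by less than 2 CPM, and all 6 endothelial clusters overlapped. Without DMSO 2 the endothelial value was 0.08 and the macrophage value -0.17.

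**Figure D5:**
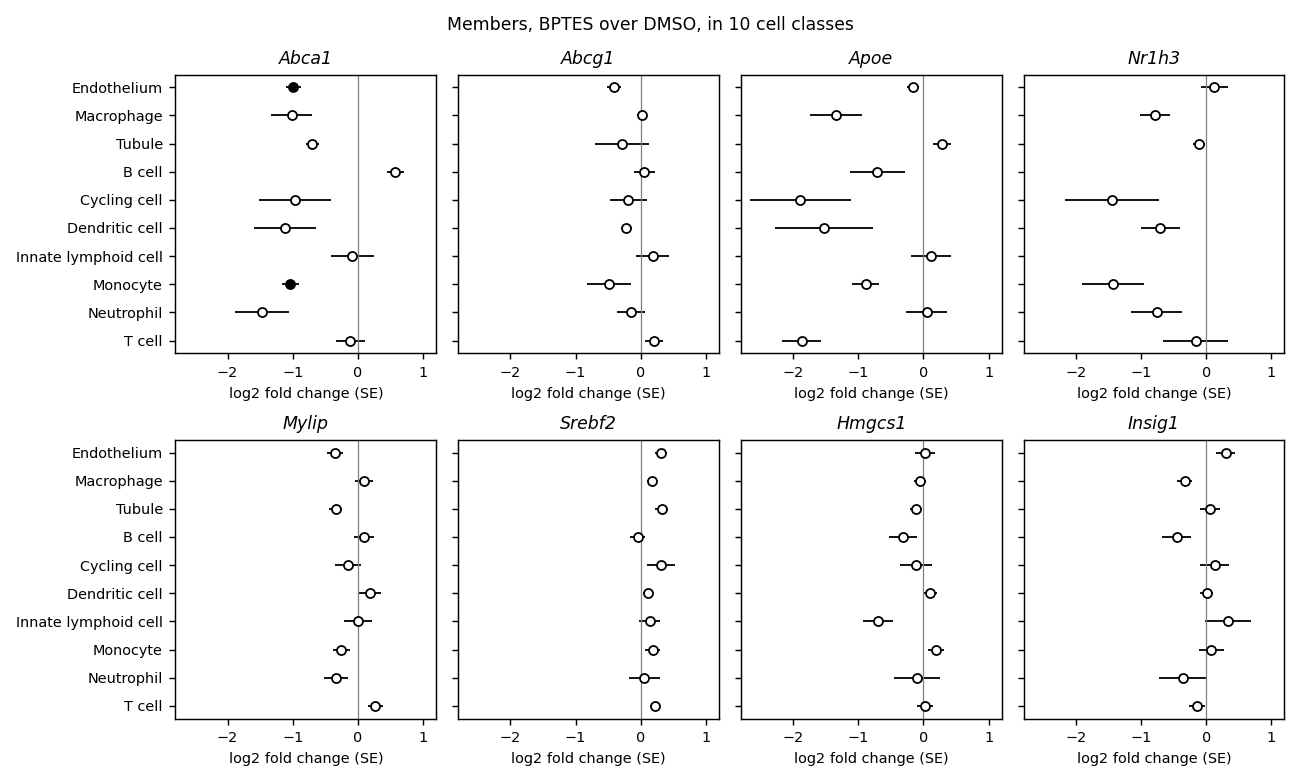
Log2 fold change of BPTES over DMSO with its SE (x axis) for each gene (panel) in 10 cell classes (y axis); filled points passed edgeR's threshold in that class and open points did not. Nr1h3 was too low to test in B cells and innate lymphoid cells. Abca1 is filled in endothelium and monocytes. The endothelial point is a value the members were chosen on and so a description. The monocyte class is not cleanly parted from macrophages, on which the members were also chosen. Abca1 lies to the right of 0 in B cells, and values for Srebf2 lie between -0.05 and 0.32.

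Genes of the pathways were counted from lists that include members, which were chosen on this contrast. The first list holds Hmgcs1. Of 21 cholesterol synthesis enzymes, all tested, edgeR called 0 in endothelium, macrophages and the tubule (3, 4 and 3 at an unadjusted p under 0.05, where 11.3%, 23% and 14.7% of all genes were). Those 3 were higher in endothelium and likewise in the tubule, and in macrophages 2 were higher and 2 lower. In endothelium 18 of the 21 had a positive and 3 a negative log2 value, with a median of 0.17 beside 0.001 over all genes; the medians were -0.004 in macrophages and 0.09 in the tubule. Idi1, the isopentenyl diphosphate isomerase, gave 22.0 and 22.4 against 19.9 and 16.1 CPM in endothelium, and Sqle, squalene epoxidase, overlapped there.

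LXR targets were counted in the same way, and their list holds the members Abca1, Abcg1, Apoe, Mylip and Nr1h3. In endothelium 1 of 15 tested was called, Abca1 itself, where 0.635% of all genes were. At an unadjusted p under 0.05 there were 3 higher and 5 lower (11.3% of all genes), and the median was -0.17. Abca1, Abcg1 and Mylip are among the lower ones. Outside the LXR target list, Scarb1, which encodes the HDL receptor, gave 122 and 138 against 171 and 209 CPM in endothelium (log2 -0.55, SE 0.12, edgeR adjusted p = 0.129). Soat1, which esterifies cholesterol for storage and is also outside it, gave 17.7 and 19.6 against 21.8 and 24.9 CPM (-0.33, adjusted p = 0.37). Srebf1, which is on the list, was -0.17. Abca7 and Nr1h2, which encodes LXRbeta, are not on it and were 0.16 and 0.08. In macrophages 0 of 15 list genes were called, 6 at an unadjusted p under 0.05 (23% of all genes), all 6 lower, with a median of -0.26. Abca1, Apoe and Nr1h3 are among those 6. In the tubule 0 of 16 list genes were called, with a median of -0.28 beside -0.03 over all genes. At an unadjusted p under 0.05, 5 were lower, Abca1 and Mylip among them, and 1 higher (14.7% of all genes). Since the lists include members chosen on this contrast, nothing is read from these counts and medians.

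In monocytes, where 8.75% of all genes were called, 3 of 18 tested genes of the LXR target list were lower, Abca1 among them, and 1 higher. Whether each list gene answers to LXR in these cells was not tested. Of the 18, 15 were negative, with a median of -0.40 beside -0.006. Lpl, lipoprotein lipase, gave 111 and 132 against 474 and 356 CPM (log2 -1.74, SE 0.17, edgeR adjusted p = 0.00623) and Pltp, the phospholipid transfer protein, 186 and 169 against 316 and 327 CPM (-0.82, SE 0.09, adjusted p = 0.00512). Smpdl3a gave 438 and 485 against 310 and 314 CPM. Abca7, another lipid transporter and not on the LXR target list, was higher at 81.4 and 79.5 against 48.5 and 53.2 CPM (log2 0.70, SE 0.10, edgeR adjusted p = 0.0101). Macrophage markers and cluster shares also differed in monocytes, as given above, and their part in these values was not tested. Lpl, Pltp and Smpdl3a were named after their values were seen. The list was written with earlier results of these data known, and nothing particular to it is read from the counts.

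Genes whose mean level over the 14 classes ran most like a member's were ranked by Pearson's r of log2(CPM + 1) among 13165 genes. For Abca1 they were Blvrb (0.83), Tdrd7 (0.82), Qk (0.81), Rnf216 (0.81) and Baz2b (0.80). Abcg1 ran with Cdyl (0.98), Apoe with Zeb2os (0.95), Nr1h3 with Znhit1 (0.85), Mylip with Tgfbr2 (0.90), Srebf2 with Zmiz2 (0.92), Hmgcs1 with Mrpl12 (0.96) and Insig1 with Arl8b (0.88). The classes share 4 libraries, so these values describe the classes only.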

How the data were processed

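Single-cell RNA sequencing was deposited as UMI counts per gene and cell barcode, which the authors made with Cell Ranger 8.0.1 against mm10, per the submitters' processing notes. Of 76278 barcodes in the 4 deposited matrices, 50605 had at least 500 UMIs, at least 300 genes and at most 50% mitochondrial UMIs; 25273 (33.133%) exceeded that last limit. Scrublet's own threshold marked 592 doublets, so the 3867 highest scores, in number set by the barcodes loaded, were removed, leaving 46738 cells. Cells were clustered in scanpy 1.11.5 (Python 3.11.15; 3000 variable genes, 40 components, 15 neighbours, Leiden resolution 1). Of 58 clusters, 50 were named from 154 markers of 23 types, needing at least 3 detected markers, and 8 (2946 cells, 6.303%) stayed unnamed. Clustering used the same cells and genes that were then compared.

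Raw UMIs were summed per library and class. Levels are CPM of that sum, counted at the 3' end, so they are not compared between genes. Fold changes and tests came from edgeR 4.0.16 (R 4.3.3), quasi-likelihood with TMM factors, its filter on low counts and Benjamini-Hochberg adjustment over all genes of a class, with 0.05 as threshold; the script was tested on simulated data. Tubule is the sum of 5 segments. Classes needed 50 cells in every library. Alternatives were DESeq2 1.42.0, RLE scaling, no filter, a replicate block, each library left out, a 25% mitochondrial limit, doublets kept, Leiden resolution 2, proximal tubule alone and levels scaled by TMM factors; plain library sizes and the shorter promoter motif were chosen after seeing the data. Text names all 8 members, the pathway genes Sqle, Nr1h2, Srebf1, Abca7, Scarb1, Soat1 and Idi1 and the immediate early genes Egr1, Fos and Jun whatever their values, the largest called pathway genes, and the genes most like each member. Some genes that this rule names are not reported here. The members and lists were chosen with earlier results of these data known.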

Additional observations from a re-analysis of the deposited data

Results flagged for a closer look

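Some members had both BPTES libraries on one side of both DMSO libraries in 1 class and on the other side in others. These differences between classes were not tested. Abca1 was higher in B cells (log2 0.57, 0.46 to 0.68 when 1 library was left out), opposite to 6 other classes. Apoe was higher in the tubule (log2 0.28, 0.07 to 0.50 when 1 library was left out), also opposite to 6 others. By proximal tubule cluster 2 of 10 were higher and 4 lower, and the Apoe-rich cluster led by Gpx3, Spp2 and Apob held 1369 and 1576 treated against 1014 and 1026 control cells. Of the 6 other classes, the values in T cells, cycling cells and dendritic cells stand near the level of macrophage markers there. In T cells Abcg1 (log2 0.21, 0.01 to 0.43 when 1 library was left out) and Mylip (log2 0.27, 0.10 to 0.42) were higher, opposite to 2 and 3 other classes. Srebf2 was lower in B cells (log2 -0.049, -0.08 to -0.01), opposite to 5 others. Insig1 was higher in endothelium (log2 0.30, 0.08 to 0.53) and innate lymphoid cells (log2 0.34, 0.19 to 0.54), opposite to 2 others.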

How the results depend on the processing

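Over all members, 944 alternative treatment values of 78 results gave 830 with the same direction and side of the threshold, 6 weaker, 39 stronger and 69 reversed. Of 264 alternative class differences, 231 were the same, 15 weaker, 6 stronger and 12 reversed. Of the 81 reversed values, 3 passed the threshold in either fit. The only alternative for the levels was scaling by TMM factors, and all 112 stayed within their spread. Levels were not read again with other clusters or cell filters. The cause of the changes below was not tested.

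Members called numbered 1 in endothelium (3 with no filter; 0 to 4 leaving out 1 library), 0 in macrophages (4 with no filter, 1 with the 25% mitochondrial limit, 1 at Leiden resolution 2; 0 to 3), 0 in the tubule (1 with DESeq2, 1 with no filter; 0 to 2), 1 in the other classes (4 with DESeq2, 7 with no filter, 0 with the 25% limit, 0 at resolution 2; 0 to 5) and 5 between macrophages and endothelium (3 to 6). Genes called numbered 88 in endothelium (141 with DESeq2, 654 with no filter; 58 to 297), 276 in macrophages (525, 2068 and, at resolution 2, 930; 0 to 1517), 1 in the tubule (630, 129, 4 with RLE scaling, 0 with doublets kept, 0 at resolution 2, 125 in proximal tubule alone; 6 to 1984) and 1441 in the other classes (5486 with no filter, 737 with the 25% limit, 463 at resolution 2; 63 to 2767). Where 1 library was left in a group, it was assumed to vary like the other group, so those counts hold no spread within it. Members called with DESeq2 in the other classes have no count of all genes beside them, and nothing is read from that number.

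With the replicate number as a block, genes called were 157 in endothelium, 131 in macrophages, 0 in the tubule and 3073 in the other classes, and members called in the other classes were 2, the added one being Apoe in monocytes (log2 -0.92, adjusted p = 0.039). No other member of the treatment comparisons changed its call under the block. The labels share only a number: deviations of same-numbered libraries correlated at 0.013, -0.045 and 0.252 in the 3 classes, over 2 pairs.

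Log2 values reversed with doublets kept for Hmgcs1 in endothelium (-0.008) and macrophages (0.009), Abcg1 in macrophages (-0.047), Srebf2 in B cells (0.11) and Nr1h3 in macrophages against endothelium (0.27). With the 25% limit they reversed for Abcg1 (-0.35) and Hmgcs1 (0.043) in macrophages, Abca1 in innate lymphoid cells (0.049), Srebf2 in monocytes (-0.045), Insig1 in endothelium against proximal tubule (0.075) and Nr1h3 in macrophages against endothelium (1.17). At resolution 2 they reversed for Abcg1 in macrophages (-0.32), Abca1 in T cells (0.16) and that Nr1h3 difference (1.23), and in proximal tubule alone for Abcg1 (0.14). Plain library sizes reversed Insig1 in the tubule (-0.032), Srebf2 (0.15) and Insig1 (0.72) in endothelium against proximal tubule, Abca1 in macrophages against endothelium (-0.10) and Insig1 in macrophages against proximal tubule (0.26). Insig1 in endothelium against proximal tubule was also 0.046 with DESeq2 and 0.05 with RLE scaling.

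Leaving out 1 library gave ranges across 0 for Nr1h3 (-0.017 to 0.26) and Hmgcs1 (-0.18 to 0.25) in endothelium, Mylip (-0.12 to 0.29) and Hmgcs1 (-0.10 to 0.002) in macrophages, Abcg1 (-0.75 to 0.41) and Insig1 (-0.13 to 0.26) in the tubule, Abca1 in innate lymphoid cells (-0.39 to 0.37) and T cells (-0.38 to 0.11), Abcg1 in monocytes (-0.86 to 0.034), Insig1 in endothelium against proximal tubule (-0.18 to 0.12) and Nr1h3 in macrophages against endothelium (-0.30 to 0.14).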
